A study of Mus musculus with 6 samples.

Results

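The genes described here encode the proteins of the cytosolic ribosome. They are the rows of the deposited table whose symbol begins with Rpl or Rps and a digit, without pseudogene symbols and the Rps6k kinases, together with Rpsa, Rplp0, Rplp1 and Rplp2. The rule found 88 of 21760 symbols, 53 of the large (60S) subunit and 35 of the small (40S) subunit by name. All 88 are named in GENCODE M21, lie on 19 chromosomes and include 85 genes annotated as protein coding. The other 3, Rpl37rt, Rps4l and Rpl32l, are annotated as pseudogenes. Rps19bp1 matches the rule by its symbol but encodes a binding partner of the Rps19 protein and not a structural protein of the ribosome. No symbol was chosen by its level.

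A ribosome holds 1 copy of nearly every one of these proteins, and a cell has to make them in matched amounts, so their mRNAs are abundant and are usually regulated together. Most of these mRNAs begin with a run of pyrimidines, the 5′ terminal oligopyrimidine (TOP) tract, through which mTORC1 and Larp1 control their translation. In macrophages growth factors and activation act on this machinery, largely by translation, which levels of RNA do not show.

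Macrophages had been sorted from subcutaneous tumours of MC38, a colon carcinoma line of the mouse, on C57BL6 mice. The 4 KO libraries came from macrophages of tumours knocked out for Xkr8, 2 from tumours of KO clone 2 and 2 from tumours of KO clone 1. The 2 WT libraries came from macrophages of wild type tumours. All tumours had grown for 16 days with no further treatment, and each library came from a separate mouse. Xkr8 is a scramblase that exposes phosphatidylserine on dying cells, and the study compared macrophages of tumours with and without it. The knockout was in the tumour cells and not in the macrophages that were sequenced. Each KO group rests on 1 clone, so the loss of Xkr8 and other traits of a clone cannot be told apart. The sources used here do not name the markers used for sorting.

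Library totals were 37090034 to 40022755 estimated reads in the KO libraries, against 39173757 in WT mouse 1 and 20038047 in WT mouse 2. WT mouse 2 stood apart. The 45S pre-ribosomal RNA Rn45s took 2.06% to 7.12% of the KO libraries, against 1.46% of WT mouse 1 and 24.6% of WT mouse 2. The macrophage markers fixed for the check were present in every library, with a summed level of 11205 to 13128 CPM (the count relative to a library size adjusted by TMM) in KO libraries, against 10553 and 13668 CPM in WT libraries. Markers of other cells differed between the libraries. The 6 fibroblast markers summed to 2356 to 3871 CPM in KO libraries, against 4084 CPM in WT mouse 1 and 11931 CPM in WT mouse 2. Most of this sum was Col3a1, at 1837 to 3215 CPM in KO libraries, against 3634 and 11320 CPM in WT libraries. Dcn went the other way, at 286 to 470 CPM in KO libraries, against 255 and 127 CPM in WT libraries. Of the 6 markers, 3 had positive fold changes in KO against WT, and 0 passed edgeR's test. The 9 listed T and NK cell markers summed to 87.1 to 157 CPM in KO libraries, against 18.5 and 28.3 CPM in WT libraries, and 3 of the 9 were higher in KO by edgeR's test (adjusted p under 0.05), beside 0.135% of all genes tested, in either direction. The 6 monocyte markers summed to 716 to 1118 CPM in KO libraries, against 580.3 and 223 CPM in WT libraries, and 1 of the 6 was higher in KO by the same test, and in each clone against WT, where 0 T and NK cell markers passed. Neutrophil markers summed to 48.7 to 65.9 CPM in KO libraries, against 28.2 and 26.1 CPM in WT libraries, and dendritic cell markers to 24.0 to 42.2 CPM, against 16.2 and 14.1 CPM. Endothelial markers summed to 47.7 to 61.5 CPM in KO libraries, against 23.2 and 31.4 CPM in WT libraries, and B cell markers to 8.44 to 13.6 CPM, against 5.89 and 3.92 CPM. No marker of these 4 lists passed the test. Of the 5 endothelial markers, 4 had positive fold changes in KO against WT and Vwf had a negative one. The 5 listed epithelial or tumour cell markers summed to 11.1 to 12.9 CPM in KO libraries, against 15.7 and 44.1 CPM in WT libraries. Nearly all of this sum was Cdh1, at 10.5 to 12.3 CPM in KO libraries, against 15.1 and 43.1 CPM in WT libraries. Epcam was under 1 CPM in every library. The part of these markers in the levels below was not tested, and in sorted bulk RNA fewer cells of a type and less RNA per cell cannot be told apart.

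The TOP tract is shown for 5 genes that are named below and held it. It was searched for as C at the start site annotated by RefSeq, followed directly by at least 4 bases that are each C or T, on the strand of the gene. RefSeq promoter entries of build GRCm38.p6 matched 67 of the 88 genes, and 15 of the 67 (22.39%) held the tract at that start, against 813 of 27025 symbols with an entry (3.01%). A start annotated a few bases away hides the tract, so a missing match says nothing about the mRNA. The windows below run from 10 bases before the start to 20 bases after it, 5′ to 3′, with the pyrimidine run in capitals.
Rps6, chr4:86857348-86857377, minus strand: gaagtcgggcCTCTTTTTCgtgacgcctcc
Rplp2, chr7:141447641-141447670, plus strand: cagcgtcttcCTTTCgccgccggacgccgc
Rps21, chr2:180257369-180257398, plus strand: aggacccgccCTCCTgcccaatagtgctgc
Rps27, chr3:90213629-90213658, minus strand: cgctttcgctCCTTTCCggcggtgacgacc
Rps27rt, chr9:114982720-114982749, minus strand: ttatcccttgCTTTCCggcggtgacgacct
Of the 5 tracts shown, that of Rps6 is the longest, and Rplp2 and Rps21 have the shortest run that the search accepts.

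Ribosomal protein genes were abundant in every library. Of the 88 genes, 75 averaged at least 100 CPM over the 6 libraries, 9 averaged 5 to 100 CPM and 4 averaged under 5 CPM, with a median of 429 CPM. Together they took 4.04% and 4.94% of the estimated reads in clone 2 libraries and 4.01% and 5.08% in clone 1 libraries, against 5.51% in WT mouse 1 and 2.60% in WT mouse 2. With Rn45s left out of the totals, the shares were 4.35% and 5.05% in clone 2 libraries and 4.11% and 5.23% in clone 1 libraries, against 5.59% and 3.45% in WT libraries. By level per kilobase of transcript, which allows genes to be set side by side, and with a rule for the transcript that was revised once after the data were seen, the highest were Rps24 (1519.9 CPM per kilobase), Rps12 (1513), Rpl19 (1291), Rps6 (1197) and Rpl10 (1159). The lowest were Rps19bp1 (17.8 CPM per kilobase), the pseudogene Rps4l (3.52), and Rpl39l, Rpl3l and Rpl32l, all under 1 CPM per kilobase. Rpl3l is known from striated muscle and Rpl39l from testis.

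Summed over all 88 genes, macrophages of KO tumours held 41094 and 45486 CPM (clone 2, mouse 1 and mouse 2) and 37438 and 49090 CPM (clone 1), against 47368 and 35832 CPM in WT libraries. The WT libraries gave the lowest value of the 6 and the second highest, so the groups overlapped fully. The means were 43277 ± 5084 CPM in KO (SD, n = 4) and 41600 ± 8157 CPM in WT (SD, n = 2). Their difference of 1677 CPM was smaller than the spread within either group, with p = 0.733 by a two-sided exact permutation test over 15 splits, of which the smallest possible p is 0.0667. The difference was 7559 CPM without WT mouse 1, -5197 CPM without WT mouse 2 and -268 CPM without KO clone 1 mouse 2, so its sign rested on single libraries. With library totals in place of TMM-scaled sizes the difference was 4657 CPM, and the permutation p was again 0.733. The 2 clones had nearly equal means, 43290 ± 3106 CPM in clone 2 and 43264 ± 8239 CPM in clone 1 (SD, n = 2 each). The exact permutation p was 0.667 for the large subunit genes alone and 0.867 for the small subunit genes alone.

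**Figure D1:**
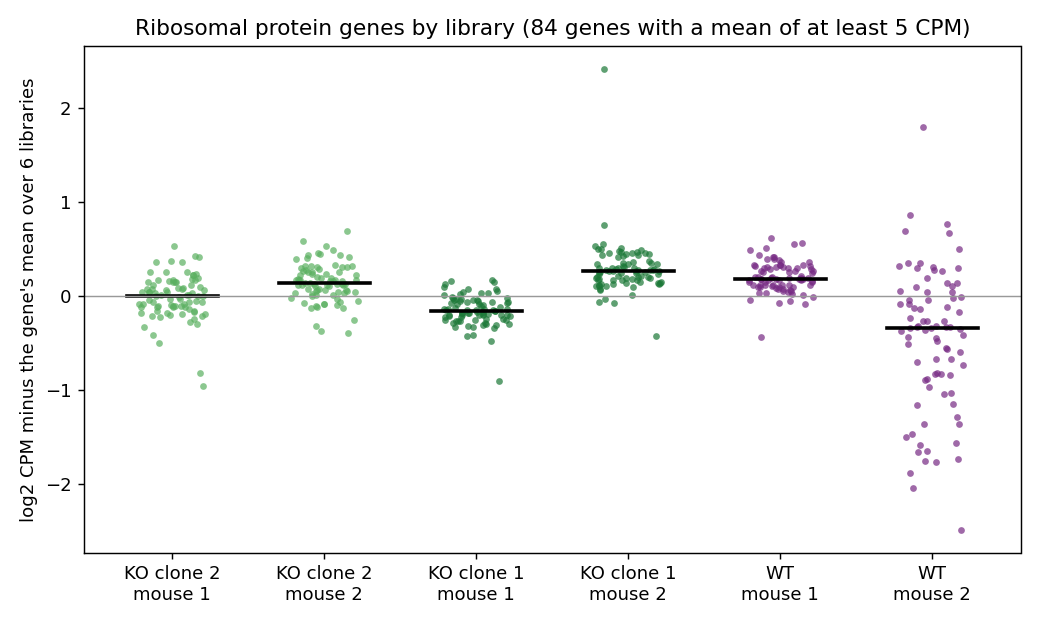
Level of each of 84 ribosomal protein genes with a mean of at least 5 CPM in each library, as log2 CPM minus the gene's mean over the 6 libraries; a point is a gene, a black bar the median. KO clone 1 mouse 2 lies above KO clone 1 mouse 1 for 83 of 84 genes, and the genes of WT mouse 2 are spread over the widest range.

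No ribosomal protein gene passed edgeR's quasi-likelihood test in KO against WT at an adjusted p under 0.05. Of all 15560 genes tested, 21 (0.135%) passed, and 87 of the 88 ribosomal protein genes were tested, Rpl32l being too low. At an unadjusted p under 0.05 there were 3 of 87 (Rpl37rt, Rpl39l and Rps9), where 13.6% of all genes lay under that p. With DESeq2, 1 of 86 passed (Rpl37rt, log2 fold change -1.60, adjusted p = 0.0250), against 3.26% of all genes. The edgeR log2 fold change was positive for 58 genes and negative for 29, with a median of 0.11. Over all genes tested, 50.2% were positive and the median was 0.003. The smallest edgeR adjusted p of these genes was 0.247, and the median standard error was 0.25 on the log2 scale. Small shifts could thus not be resolved with 2 WT libraries. Shifts well above that standard error did not pass either, such as Rps9 at -0.66 ± 0.27 (edgeR adjusted p = 0.350).

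No ribosomal protein gene had all 4 KO libraries above both WT libraries, an arrangement held by 12.9% of all genes. All 4 KO libraries lay below both WT libraries for 5 tested genes, Rpl3, Rpl11, Rpl13a, Rpl37rt and Rpl39l, where 10.7% of all genes did. For 13 genes all KO libraries lay between the 2 WT libraries, where 13.1% of all genes did. WT mouse 2 had the lowest value of the 6 libraries for 53 of 87 genes, against 39% of all genes, and the highest for 16, against 35.1% of all genes. The gap between the 2 WT libraries was wider than the whole range of the 4 KO libraries for 56 of 87 genes, where 58.09% of all genes had that wider gap.

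The direction of most genes depended on which WT library was used. Without WT mouse 1, 39 of 87 ribosomal protein genes passed edgeR's test, beside 37.5% of all genes. Of these, 33 were higher in KO, beside 21.9% of all genes, and 6 were lower, beside 15.7% of all genes, namely Rpl37rt, Rpl39l, Rplp2, Rps15, Rps16 and Rps9. Without WT mouse 2, the smallest edgeR adjusted p of these genes was 0.721, beside 0.174% of all genes under the threshold. The log2 fold change was then negative for 83 of 87, with a median of -0.14. Over all genes in that fit, 47.8% were positive and the median was -0.014. Without WT mouse 1, 64 of 87 were positive, with a median of 0.41. Over all genes, 52.8% were then positive and the median was 0.075. With either WT library alone, the lone library was assumed to vary as the others do.

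**Figure D2:**
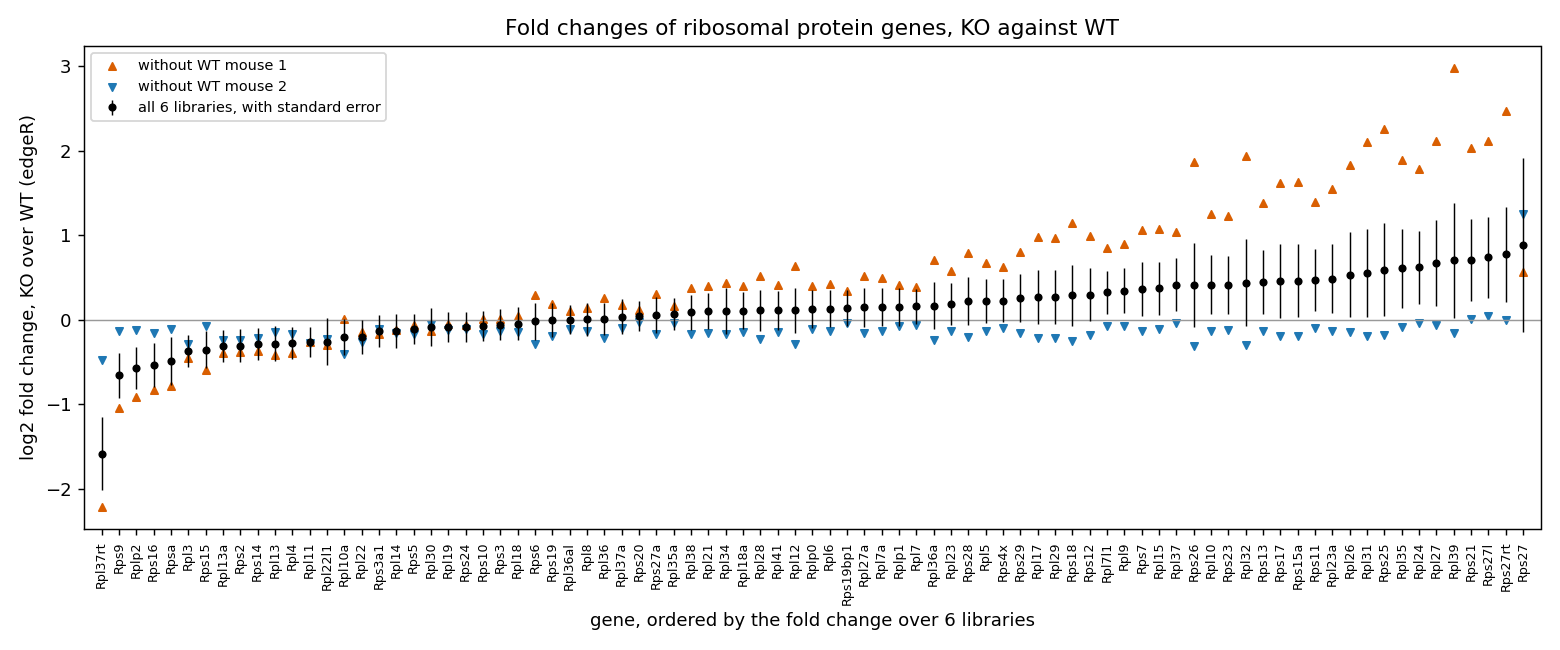
edgeR log2 fold change, KO over WT, of 83 of the 84 ribosomal protein genes with a mean of at least 5 CPM (1 is not reported here), ordered by the value over all 6 libraries (black points, bars are the standard error). Orange triangles leave out WT mouse 1 and reach 2.98 at Rpl39; blue triangles leave out WT mouse 2 and lie close to 0, mostly below it.

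The stalk proteins recruit elongation factors to the ribosome, with Rplp0 as the base to which dimers of Rplp1 and Rplp2 bind. Rplp0 stood at 1281 and 1444 CPM in clone 2 libraries and 1221 and 1628 CPM in clone 1 libraries, against 1480.4 and 1066 CPM in WT libraries. Rplp1 stood at 540.0 and 591 CPM in clone 2 libraries and 439.6 and 629 CPM in clone 1 libraries, against 569.6 and 417 CPM in WT libraries. For both, WT mouse 2 was the lowest library and WT mouse 1 lay among the KO libraries. Rplp2 ran the other way between WT mice, at 261 and 284 CPM in clone 2 libraries and 246 and 311 CPM in clone 1 libraries, against 294 and 526 CPM in WT libraries. The log2 fold changes were 0.13 ± 0.22 for Rplp0, 0.16 ± 0.22 for Rplp1 and -0.57 ± 0.25 for Rplp2, with edgeR adjusted p of 0.757, 0.706 and 0.368. Thus in WT mouse 2 a gene of the stalk dimer and its partner lay on opposite sides of the KO libraries. Without WT mouse 1 edgeR's log2 fold change of Rplp2 was -0.92 (adjusted p = 0.00527), and without WT mouse 2 it was -0.12 (adjusted p = 0.924). The TOP tract of Rplp2 is among those printed above.

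Rpl5 and Rpl11 bind 5S rRNA before it joins the large subunit and are known to bind Mdm2 when assembly is disturbed. Rpl5 stood at 1069 and 1163 CPM in clone 2 libraries and 909 and 1216 CPM in clone 1 libraries, against 1174 and 689 CPM in WT libraries. Rpl11 stood at 394 and 424 CPM in clone 2 libraries and 321 and 396 CPM in clone 1 libraries, against 457 and 463 CPM in WT libraries. WT mouse 2 was the lowest library for Rpl5, while for Rpl11 both WT libraries lay above all KO libraries. The edgeR log2 fold change was 0.23 ± 0.26 for Rpl5 and -0.26 ± 0.18 for Rpl11, with adjusted p of 0.639 and 0.469. That of Rpl5 was 0.67 (adjusted p = 0.0424) without WT mouse 1 and -0.13 (adjusted p = 0.930) without WT mouse 2. Rpl3, which lies near the peptidyl transferase centre, stood at 953 and 1034 CPM in clone 2 libraries and 888 and 1140.0 CPM in clone 1 libraries, against 1204 and 1385 CPM in WT libraries. Rpl13a, known also for translational control in human monocytic cells treated with interferon-gamma, stood at 569 and 645 CPM in clone 2 libraries and 516 and 676 CPM in clone 1 libraries, against 699.5 and 795 CPM in WT libraries. Their KO and WT values did not overlap, yet edgeR's adjusted p was 0.401 for Rpl3 and 0.438 for Rpl13a, with log2 fold changes of -0.37 ± 0.19 and -0.31 ± 0.19.

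Of the small subunit genes, Rps9 had the most negative fold change among genes above 100 CPM. Rps9, whose yeast homologue affects the accuracy of decoding, stood at 592 and 660.5 CPM in clone 2 libraries and 577 and 682 CPM in clone 1 libraries, against 675 and 1305 CPM in WT libraries. The WT libraries thus held the highest value of the 6 and one inside the KO range. Its log2 fold change was -0.66 ± 0.27, with an edgeR adjusted p of 0.350. Rps16 had the same arrangement, at 150.4 and 174 CPM in clone 2 libraries and 132 and 209 CPM in clone 1 libraries, against 183 and 299 CPM in WT libraries, with a log2 fold change of -0.53 ± 0.26 and an edgeR adjusted p of 0.392. Without WT mouse 1 edgeR's log2 fold change was -1.04 (adjusted p = 0.00316) for Rps9 and -0.83 (adjusted p = 0.0282) for Rps16, and without WT mouse 2 it was -0.13 (adjusted p = 0.911) and -0.16 (adjusted p = 0.928). Rpsa, the 40S protein also known as the laminin receptor, was the most abundant gene of the set before length is considered, at 1241 and 1387 CPM in clone 2 libraries and 1415 and 2001 CPM in clone 1 libraries, against 1604 and 2625 CPM in WT libraries. WT mouse 2 was the highest library for Rpsa too, and the log2 fold change was -0.48 ± 0.28 (edgeR adjusted p = 0.431).

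Several genes with positive fold changes, Rpl39 and Rps21 among them, were low in WT mouse 2. Rpl39, a very short 60S protein of the exit tunnel encoded on the X chromosome, stood at 260.0 and 290.1 CPM in clone 2 libraries and 202 and 253 CPM in clone 1 libraries, against 276 and 32.1 CPM in WT libraries. Rps21, a 40S protein, stood at 219 and 236 CPM in clone 2 libraries and 158 and 221 CPM in clone 1 libraries, against 203 and 51.5 CPM in WT libraries. WT mouse 1 lay inside the KO range for Rps21 and between the 2 highest KO libraries for Rpl39, and in both genes WT mouse 2 was far below all others. Their log2 fold changes were 0.70 ± 0.68 and 0.71 ± 0.48, with edgeR adjusted p of 0.583 and 0.468. They were 2.98 (adjusted p = 0.000904) and 2.03 (adjusted p = 0.00188) by edgeR without WT mouse 1, and -0.16 (adjusted p = 0.911) and 0.014 (adjusted p = 0.997) without WT mouse 2.

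Rps6, the substrate of S6 kinase, whose TOP tract is printed above, stood at 1039 and 1141 CPM in clone 2 libraries and 899 and 1109 CPM in clone 1 libraries, against 1255 and 863 CPM in WT libraries. Rps19, the gene most often mutated in human Diamond-Blackfan anaemia, stood at 312 and 362 CPM in clone 2 libraries and 313 and 412 CPM in clone 1 libraries, against 393 and 309 CPM in WT libraries. All 4 KO values lay between the 2 WT values for Rps6 and 3 of the 4 did for Rps19, and the log2 fold changes were -0.02 ± 0.22 and -0.01 ± 0.20. Rps27a, which is made as a fusion with ubiquitin, averaged 508 ± 65.7 CPM in KO libraries (SD, n = 4) and 487 ± 103 CPM in WT libraries (SD, n = 2), with a log2 fold change of 0.06 ± 0.21 and an edgeR adjusted p of 0.884. Rps24, the highest gene per kilobase, stood at 751 and 812 CPM in clone 2 libraries and 682 and 851 CPM in clone 1 libraries, against 820.1 and 816 CPM in WT libraries, with 4 KO values that enclosed both WT values.

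Between WT mice the genes did not shift as a block. The log2 difference of WT mouse 2 over WT mouse 1 had a median of -0.52 and an SD of 0.90 over the 84 genes above 5 CPM, and ran from -3.10 for Rpl39 to 1.78 for Rpl37rt. The same SD over 10492 other genes above 5 CPM, not matched further by level, was 0.94. Rps25, Rpl31 and Rpl32, named after their values were seen, were among the lowest, at -2.40, -2.27 and -2.21. Rps9, Rplp2 and Rpsa were among the highest, at 0.95, 0.84 and 0.71. Across the genes the difference had a Spearman rho of 0.295 with coding length (n = 83 genes) and 0.251 with GC content (n = 84 genes), as a description over genes that share both libraries. Rn45s stood at 24.6% of WT mouse 2 and 1.46% of WT mouse 1, beside this difference. With Rn45s left out of the counts and library sizes, the median log2 fold change of KO over WT was again 0.11 and 0 ribosomal protein genes passed edgeR's test.

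Within each KO clone, and in the other pairs of libraries without WT mouse 2, the genes moved together. KO clone 1 mouse 2 was above mouse 1 for 85 of 87 tested ribosomal protein genes, where 50.5% of all genes were. KO clone 2 mouse 2 was above mouse 1 for 83 of 87, where 50% of all genes were. The median log2 difference between mice was 0.38 in clone 1 and 0.15 in clone 2. Over the 69 genes with no near-identical copy in the table, its SD was 0.079 in clone 1 and 0.047 in clone 2, and over all 84 genes above 5 CPM it was 0.35 in clone 1 and 0.078 in clone 2. The SD over 10492 other genes above 5 CPM, copies or not, was 0.40 in clone 1 and 0.19 in clone 2. Those genes were not matched to the ribosomal protein genes by level, so the SDs are not like for like. For the 69 genes, the mice of a clone thus differed by a similar factor. This was not particular to mice of 1 clone. The SD over the same genes was 0.100 to 0.116 for KO libraries against WT mouse 1. It was 0.127 to 0.143 between libraries of different clones, and 0.787 to 0.852 for KO libraries against WT mouse 2. Replicate numbers name mice and imply no order.

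Against WT, the clones gave no calls either. For clone 2, 0 of 87 genes passed edgeR's test, beside 0.00643% of all genes, with 1 of 87 at an unadjusted p under 0.05 beside 11.3% of all genes. For clone 1, 0 of 87 passed, also beside 0.00643% of all genes, with 2 of 87 at an unadjusted p under 0.05 beside 7.1% of all genes. DESeq2 called 0 in clone 2, beside 2.97% of all genes, and 0 in clone 1, beside 1.72% of all genes. Both comparisons use the same WT libraries. The median log2 fold change of the genes was 0.12 for clone 2 and 0.14 for clone 1, beside -0.03 and 0.02 over all genes. Without WT mouse 1, 40 genes passed for clone 2, beside 40.2% of all genes, and 34 for clone 1, beside 34.5% of all genes.

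Between the clones, 0 of 87 genes passed edgeR's test, beside 0% of all genes. At an unadjusted p under 0.05 there was 1, Rpl22l1, beside 3.23% of all genes, and DESeq2 called 0, beside 0.798% of all genes. The log2 fold change of clone 2 over clone 1 was positive for 46 genes and negative for 41, with a median of 0.01. Over all genes 47.0% were positive, with a median of -0.02. Both clone 2 libraries lay above both clone 1 libraries for Rpl22, Rpl23 and Rpl39, 3 of 87 genes beside 21.8% of all genes. Both lay below for Rpl22l1 and Rpsa, 2 of 87 genes beside 22.7% of all genes. Rpl23, a 60S protein known to bind Mdm2, stood at 894 and 956 CPM in clone 2 libraries and 675 and 879 CPM in clone 1 libraries, against 913 and 576 CPM in WT libraries, and its clone 2 over clone 1 log2 fold change was 0.25 ± 0.30. Mouse 2 of clone 1 was just below the clone 2 libraries. The same fold change was 0.27 ± 0.82 for Rpl39 and 0.26 ± 0.58 for Rps21 among the most positive, and -0.38 ± 0.33 for Rpsa and -0.23 ± 0.39 for Rpl29 among the most negative, with an edgeR adjusted p of 1 for each.

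Rpl22 and Rpl22l1 encode alternative forms of the same 60S protein, and in mouse cells Rpl22 is known to hold down the mRNA of Rpl22l1. Rpl22 (chr4:152325742-152334071 on the plus strand, GRCm38) stood at 228 and 248 CPM in clone 2 libraries and 167 and 213 CPM in clone 1 libraries, against 253 and 239 CPM in WT libraries. Rpl22l1 (chr3:28805436-28807424 on the plus strand) stood at 28.5 and 32.3 CPM in clone 2 libraries and 38.1 and 56.9 CPM in clone 1 libraries, against 44.7 and 48.4 CPM in WT libraries. The 2 genes were ordered oppositely between the clones, with clone 2 higher for Rpl22 and lower for Rpl22l1, while both WT libraries lay inside the range of the KO libraries for Rpl22l1. The log2 fold change of clone 2 over clone 1 was 0.32 ± 0.22 for Rpl22 and -0.64 ± 0.26 for Rpl22l1, both with an edgeR adjusted p of 1. With single libraries left out it ran from 0.16 to 0.51 for Rpl22 and from -0.90 to -0.32 for Rpl22l1. Rpl22l1 as a percent of Rpl22 was 12.5 and 13.0% in clone 2 libraries and 22.8 and 26.7% in clone 1 libraries, against 17.7 and 20.2% in WT libraries. This ratio was formed after the values were seen and carries no test.

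**Figure D3:**
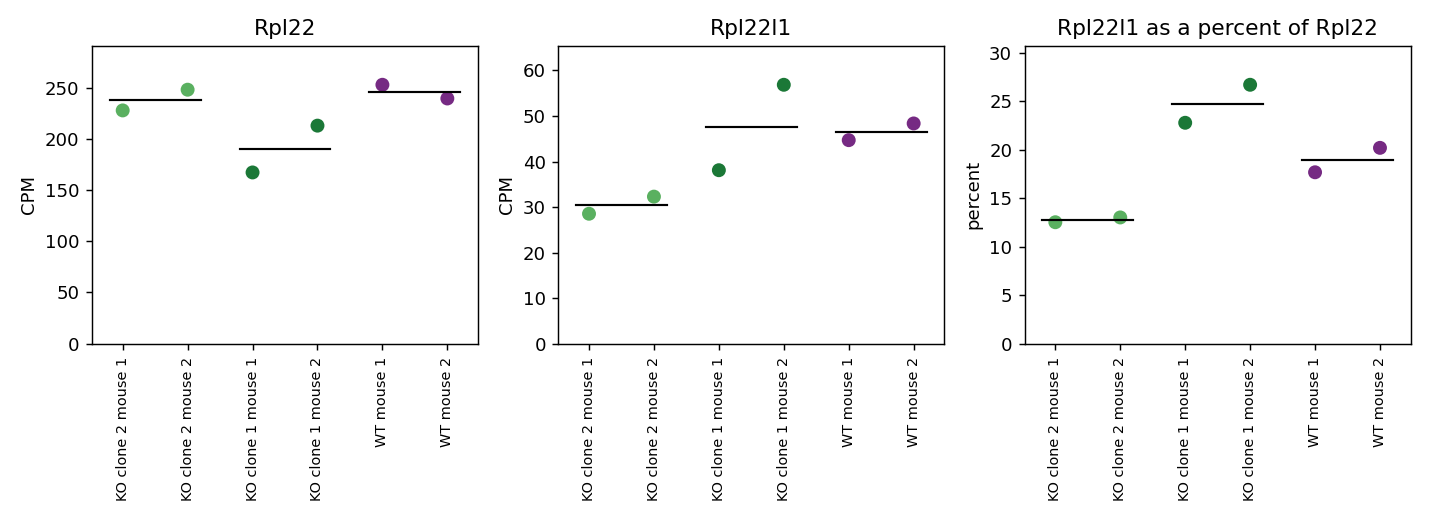
Levels of Rpl22 and Rpl22l1 in CPM, and Rpl22l1 as a percent of Rpl22, in each library; points are libraries and bars are group means (n = 2 each). The percent is 12.5 and 13.0 in clone 2, 22.8 and 26.7 in clone 1, and 17.7 and 20.2 in WT.

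The ratios of other paralogues were formed in the same way. As a percent of Rpl7, its paralogue Rpl7l1, which has a role in ribosome assembly, was 9.68 and 8.31% in clone 2 libraries and 8.87 and 9.06% in clone 1 libraries, against 9.09 and 6.50% in WT libraries. As a percent of the X-linked Rpl36a, the autosomal gene Rpl36al was 62.1 and 61.0% in clone 2 libraries and 78.9 and 67.9% in clone 1 libraries, against 60.9 and 101% in WT libraries. For Rpl36al the ratio was highest in WT mouse 2, where Rpl36a was low. Rps4l was under 1% of Rps4x in every library. Rpl39l had 5 and 5 counts in clone 2 libraries and 6 and 2 in clone 1 libraries, against 13 and 12 in WT libraries, so its fitted log2 fold change of -2.18 rests on few reads. Rpl3l had 21 and 10 counts in clone 2 libraries and 5 and 17 in clone 1 libraries, against 9 and 3 in WT libraries.

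Ribosomal protein genes have many processed copies, and some levels here depend on how reads were divided between a gene and its copy. Of the 88 genes, 62 had another GENCODE gene at least 95% identical over at least 60% of the transcript, up to 35 for 1 gene, and for 15 such a copy was listed in the table. The limit of 60% was set after the copies of Rpl30 and Rpl34 had been seen. Rps27, a 40S zinc-finger protein, and its copy Rps27rt are shown here because most of the reads were assigned to the copy. The first 90 coding bases are printed with capitals where a base differs from Rps27. Rps27rt has 0 differences in this stretch, and the paralogue Rps27l, known in human cells as a target of p53, has 24.
Rps27: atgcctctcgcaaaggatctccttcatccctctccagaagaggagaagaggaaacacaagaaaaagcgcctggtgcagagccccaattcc
Rps27rt: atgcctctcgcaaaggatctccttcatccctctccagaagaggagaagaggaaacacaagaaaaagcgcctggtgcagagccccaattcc
Rps27l: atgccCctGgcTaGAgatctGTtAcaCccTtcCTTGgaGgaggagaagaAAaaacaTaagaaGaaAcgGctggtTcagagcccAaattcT
Rps27 lies at chr3:90212522-90213651 on the minus strand, Rps27rt at chr9:114982366-114982739 on the minus strand and Rps27l at chr9:66946086-66949516 on the plus strand (GRCm38, GENCODE M21).

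Rps27 stood at 2.98 and 4.40 CPM in clone 2 libraries and 3.08 and 30.9 CPM in clone 1 libraries, against 4.26 and 7.02 CPM in WT libraries. Mouse 2 of clone 1 stood alone, and Rps27 had both the most positive log2 fold change of KO over WT (0.89 ± 1.03) and the most negative of clone 2 over clone 1 (-2.20 ± 0.95) among the 84 genes with a mean of 5 CPM or more. Rps27rt stood at 318 and 356 CPM in clone 2 libraries and 266 and 332 CPM in clone 1 libraries, against 313 and 57.6 CPM in WT libraries. The 2 genes summed to 321 and 361 CPM in clone 2 libraries and 269 and 363 CPM in clone 1 libraries. The WT libraries held 317 and 64.6 CPM. Rps27rt made up most of this sum in every library, so the sum cannot tell how the high Rps27 value arose. Rps27 held 0.928% and 1.22% of this sum in clone 2 libraries and 1.14% and 8.50% in clone 1 libraries, against 1.34% and 10.9% in WT libraries. With copies summed into the parent, an alternative added after the data were seen, the log2 fold change of clone 2 over clone 1 was 0.11. That value too was set mostly by Rps27rt. Rps27l stood at 70.3 and 73.4 CPM in clone 2 libraries and 58.0 and 78.7 CPM in clone 1 libraries, against 67.0 and 16.3 CPM in WT libraries, with a log2 fold change of 0.74 ± 0.48 for KO over WT and an edgeR adjusted p of 0.455. Without WT mouse 1 edgeR gave 2.12 (adjusted p = 0.00122) for Rps27l and 2.48 (adjusted p = 0.000931) for Rps27rt, and without WT mouse 2 it gave 0.04 (adjusted p = 0.982) and -0.00059 (adjusted p = 0.9999).

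In Rpl26, Rpl30 and Rpl34, named after their values were seen, the copy also took most of the reads. Of the reads of Rpl26 and Gm15772 together, Rpl26 held 6.68 and 6.97% in clone 2 libraries and 5.20 and 8.04% in clone 1 libraries, against 6.90 and 1.94% in WT libraries. Of those of Rpl30 and Gm12191, Rpl30 held 6.63 and 6.16% in clone 2 libraries and 6.23 and 7.36% in clone 1 libraries, against 6.48 and 15.5% in WT libraries. Of those of Rpl34 and Rpl34-ps1, Rpl34 held 7.77 and 8.36% in clone 2 libraries and 7.05 and 9.20% in clone 1 libraries, against 8.29 and 10.5% in WT libraries. The share in WT mouse 2 was thus the lowest of the 6 for Rpl26 and the highest for Rpl30 and Rpl34. The summed level of Rpl26 and its copy was 525 and 616 CPM in clone 2 libraries and 532 and 677 CPM in clone 1 libraries, against 630.2 and 584 CPM in WT libraries, so that WT mouse 2 lay within the range of the KO libraries, while Rpl26 alone was lowest in WT mouse 2 at 11.4 CPM. The summed level of Rpl30 and its copy was 657 and 681 CPM in clone 2 libraries and 523 and 751 CPM in clone 1 libraries, against 678 and 311 CPM in WT libraries, with WT mouse 2 the lowest, while Rpl30 alone was within the KO range in WT mouse 2 at 48.0 CPM. The levels of such genes are therefore uncertain one by one.

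**Figure D4:**
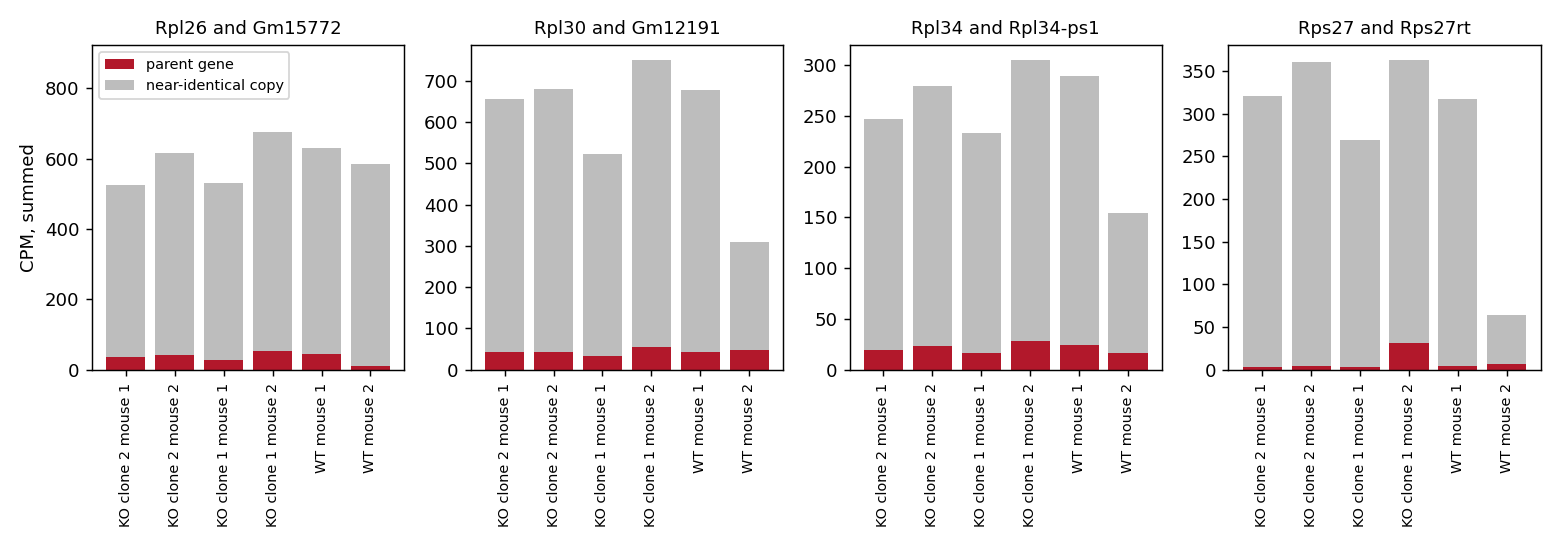
Summed level in CPM of 4 ribosomal protein genes (red) and their near-identical copies (grey) in each library; each panel has its own axis from 0. The copy holds most of every bar, and Rps27 holds 8.50% of its bar in KO clone 1 mouse 2, against 0.928% to 1.22% in the other 3 KO libraries, 1.34% in WT mouse 1 and 10.9% in WT mouse 2.

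Rpl37rt, a copy of Rpl37, was the gene that DESeq2 called. Its first 90 bases have 0 differences from the coding start of Rpl37. Rpl37rt (chr5:115102923-115110268 on the minus strand, GRCm38) stood at 3.84 and 5.22 CPM in clone 2 libraries and 5.94 and 5.05 CPM in clone 1 libraries, against 6.85 and 23.5 CPM in WT libraries. WT mouse 2 was far above the other 5 libraries, and WT mouse 1 was a little above the highest KO library. The log2 fold change was -1.59 ± 0.43 with an edgeR adjusted p of 0.247, -0.48 without WT mouse 2 and -2.22 (adjusted p = 0.00122) without WT mouse 1. Rpl37 itself stood at 370.3 and 417 CPM in clone 2 libraries and 302 and 466 CPM in clone 1 libraries, against 392 and 191 CPM in WT libraries, lowest in WT mouse 2.

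Some genes of the same machinery, such as Fau and Gnb2l1, lie outside the symbol rule. Fau, which encodes a 40S protein fused to a ubiquitin-like domain, stood at 309.9 and 357 CPM in clone 2 libraries and 354 and 425 CPM in clone 1 libraries, against 377 and 706 CPM in WT libraries, highest in WT mouse 2 (log2 fold change -0.58 ± 0.27, edgeR adjusted p = 0.378). Fau passed edgeR's test without WT mouse 1, at -0.95, a fit in which 37.5% of all genes passed. Without WT mouse 2 its log2 fold change was -0.086. Gnb2l1, the 40S scaffold Rack1, had a log2 fold change of -0.02 ± 0.19. None of the lists fixed for translation held a gene that passed in KO against WT in either direction. Of 34 initiation factors 19 had positive fold changes (median 0.04), and of 11 elongation and termination factors 4 did (median -0.09). Positive values were found for 14 of 38 genes of ribosome biogenesis and RNA polymerase I (median -0.13), 7 of 18 genes of mTORC1, S6 kinase and TOP control (median -0.24), and 7 of 11 snoRNA host genes (median 0.15). Of 77 mitochondrial ribosomal protein genes 57 had positive values (median 0.19). Over all genes tested, 50.2% were positive and the median was 0.003. The mitochondrial list summed to 1864.5 to 2291 CPM in KO libraries, against 2132 and 1685 CPM in WT libraries. The mTORC1 list summed to 1176 to 1402 CPM in KO libraries, against 1203 and 1608 CPM in WT libraries. In both, WT mouse 1 lay inside the KO range and WT mouse 2 outside it.

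Over the 6 libraries, the genes outside the set whose log2 CPM followed the summed ribosomal protein genes most closely, among 3968 with a mean of at least 50 CPM, were Hint1 (Pearson r = 0.988), Eif4a1 (0.985), Hist1h2bc (0.975), Hnrnpu (0.974) and Hnrnpc (0.974). These are descriptions over 6 libraries that share their depth and scaling. Hint1 stood at 134 and 147 CPM in clone 2 libraries and 127 and 164 CPM in clone 1 libraries, against 152 and 119 CPM in WT libraries.

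The genes with a TOP tract at the RefSeq start had log2 fold changes of KO over WT with a median of 0.20 (14 tested genes, -0.57 to 0.89), and those with an entry but no tract there had a median of 0.13 (52 genes, -2.18 to 0.74). The ranges overlapped.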

How the data were processed

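Values are estimated counts for each gene symbol, deposited as whole numbers and not scaled to depth. The submitters' processing notes name Salmon 0.7.2 and the build mm10. RNA was rRNA-depleted before TruSeq libraries were made, per the labels' protocols. For the transcript set, the filters, strand and the division of reads between near-identical genes, no statement was found in the sources used here.

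The 88 genes, the other lists and the tests were chosen with earlier results of these data known. Counts were tested over all 15560 genes that passed filterByExpr (minimum count 10, minimum total 15) with edgeR 4.0.16 in R 4.3.3 (TMM, quasi-likelihood F test, Benjamini-Hochberg adjustment over all genes, threshold 0.05). KO against WT came from a fit with 2 genotype levels, and clone comparisons from a fit with 3 groups over all 6 libraries. The standard error is the absolute log2 fold change divided by the square root of F. CPM used TMM-scaled library sizes. Library totals were 20038047 to 40022755, and the biological coefficient of variation was 0.297. Replicates of a group differed beyond counting noise (chi-square per degree of freedom 80.5 to 860). That value included Rn45s, at 572501 and 4937080 counts in WT libraries, and the part due to Rn45s was not separated. Intervals from depth were not formed. The KO against WT fit was checked on simulated counts, with edgeR and with DESeq2. All simulated libraries shared a mean profile, apart from the changes put in, and a common spread. None departed as WT mouse 2 does, so the check does not cover that case. The fit with 3 groups was not checked in this way.

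Genes named singly were, in KO against WT and in clone 2 against clone 1, the 5 most positive and 5 most negative by fold change with a mean of at least 5 CPM, the 5 highest and 5 lowest per kilobase (of the shortest RefSeq NM or APPRIS principal transcript, a rule revised once after the data were seen), and a fixed set of stalk, 5S, paralogue and disease-related genes. A gene named otherwise is said to be chosen after its values were seen. Rps15 and Rpl37 were named with a count or as the parent of a named copy. Genes that the rule allows but that are not named are not reported here. Near-identical copies were found with blastn 2.17.0 on GENCODE M21 transcripts, and positions are from GENCODE M21 on GRCm38, of which 20429 of 21760 symbols matched a name. Alternatives were RLE size factors, DESeq2 1.42.0, other filters, leaving out each library, the mouse number as a block, Rn45s left out, named pseudogenes summed into the parent, the mean of the clones from the fit with 3 groups, library totals without TMM factors and, added after the data were seen, copies summed into the parent.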

Additional observations from a re-analysis of the deposited data

Results flagged for a closer look

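Among the 4 KO libraries, Rps27 in clone 1 mouse 2 lay far from the others, with a gap to its neighbour of 0.949 of the group's range (30.9 CPM, against 2.98 to 4.40 CPM in the other KO libraries and 4.26 and 7.02 CPM in WT libraries). Its sum with the near-identical copy Rps27rt was mostly Rps27rt in every library, so the sum cannot tell how this value arose. Rpl32l, an annotated pseudogene, had 0 counts in clone 2 mouse 1 and 1 count in each other KO library, a gap of 0.923 of the range, against 5 and 1 counts in WT libraries. In all, 38 groups of values were examined in this way, and chance flags about 1 in 20.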

How the results depend on the processing

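The number of ribosomal protein genes that passed was 0 in all 4 comparisons under RLE size factors, both other filters, the replicate block, Rn45s left out, named pseudogenes summed and copies summed, and 0 in KO against WT with the mean of the clones. DESeq2 called 1 in KO against WT. Leaving out 1 library gave 0 to 39 genes in KO against WT, 0 to 34 in clone 1 against WT, 0 to 40 in clone 2 against WT and 0 to 0 between clones, the high values without WT mouse 1. The summed difference of KO and WT ran from -5197 to 7559 CPM.

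Of 37 named genes tested in KO against WT, 19 changed sign without 1 library, 16 of them with WT mouse 2 left out. Their log2 fold changes over single omissions were Rpl10 -0.13 to 1.26, Rpl23 -0.13 to 0.58, Rpl29 -0.21 to 0.97, Rpl36a -0.24 to 0.70, Rpl36al -0.11 to 0.10, Rpl39 -0.16 to 2.98, Rpl5 -0.13 to 0.67, Rpl7 -0.055 to 0.39, Rpl7l1 -0.075 to 0.85, Rplp0 -0.11 to 0.40, Rplp1 -0.075 to 0.41, Rps12 -0.18 to 0.99, Rps19 -0.19 to 0.19, Rps19bp1 -0.042 to 0.34, Rps27 -0.68 to 1.25, Rps27a -0.16 to 0.31, Rps27rt -0.00059 to 2.48, Rps4x -0.094 to 0.62 and Rps6 -0.29 to 0.29. For clone 2 over clone 1, the range of Rps27 was -3.06 to 0.27. With copies summed the value was 0.11, for a sum that was mostly Rps27rt.

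Rpl36al, at 0.0011, turned to -0.0025 with RLE size factors, -0.0028 with DESeq2, -0.048 under the filter of 5 CPM and -0.0049 with the replicate block. Without a filter Rps6 was 0.0018 and Rps19 0.015. The cause was not tested. Over all genes tested, correlations of the mouse 2 over mouse 1 difference between groups were weak and of mixed sign. The correlation was -0.28 for WT and clone 1, 0.050 for WT and clone 2, and 0.22 for the 2 clones. With 2 mice a group, these values cannot decide whether mice of the same number share a batch, which was not tested. The replicate block left 0 ribosomal protein genes called. With 2 WT libraries, small shifts of these genes could not be resolved, and levels of genes with near-identical copies are uncertain.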
